A study of Mus musculus with 2 samples.

Results

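Interferon-response neutrophils were examined among tumor-associated neutrophils (TANs) of mouse Lewis lung carcinoma (LLC), a line of mouse lung cancer cells. They were selected on their own transcripts, as neutrophils holding at least 3 transcripts of Ifit1, Ifit3, Isg15 and Rsad2 together, 4 genes that cells switch on in response to interferon. Transcripts were counted as unique molecular identifiers (UMIs), each standing for 1 captured RNA molecule. By this rule 960 of 2491 neutrophils were interferon-response cells, 425 of 1615 in the Smad3-WT library and 535 of 876 in the Smad3-KO library, out of 6630 barcodes in all. A barcode was taken as a neutrophil when it held more than 500 UMIs, at least 200 genes and less than 10% mitochondrial UMIs, when S100a8 and S100a9 made up at least 1% of its UMIs, and when it held at most 1 UMI of 8 genes of other cells (C1qa, C1qb, C1qc, Ccr2, Ms4a6c, Cd79a, Cd3e and Krt8) and fewer than 10 UMIs of the granule genes Camp, Ngp and Ltf.

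Type I interferons are secreted proteins that bind a receptor of the Ifnar1 and Ifnar2 chains on most cells of the body. The receptor's kinases Jak1 and Tyk2 activate transcription factors, among them Stat2, which joins Irf9 and binds a short DNA element, the interferon-stimulated response element, in the promoters of a large set of genes. These interferon-stimulated genes encode antiviral proteins, sensors of foreign nucleic acid, chemokines and the factors that limit the response, and neutrophils that carry them are a known state in blood and tumors.

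Each library was made from CD11b+Ly6G+ cells sorted from 8 subcutaneous LLC tumors, pooled before the droplet step. The Smad3-WT library came from Smad3+/+ mice and the Smad3-KO library from Smad3-/- mice. Both were of strain C57BL/6, given as C57BL/6 J in the paper, and aged 8 to 12 weeks. Smad3 carries signals of transforming growth factor beta, and the mice lacked it in every cell, not in neutrophils alone. With 1 library per genotype there was no replicate, so no test of genotype was possible and no p-value is given. All intervals are exact 95% intervals that cover counting error only, and a difference between the libraries cannot be told apart from a difference between preparations.

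The libraries differed in more than Smad3. No UMI of Xist, the transcript of the inactive X chromosome, was found in any Smad3-WT neutrophil, whereas 64 of 535 interferon-response cells of the Smad3-KO library held one, and Y-linked Ddx3y was found in 46 of 425 and 13 of 535 interferon-response cells. The libraries thus differed in the sex of the mice, and sex and Smad3 genotype cannot be told apart. Smad3 itself gave 8 UMIs in the interferon-response cells of Smad3-WT and 141 in those of Smad3-KO. The libraries read the 5′ end of transcripts, upstream of the disrupted part of the gene, so these counts check nothing about the deletion. The same 73 barcode sequences occurred in both libraries, 2 of them among the interferon-response cells of Smad3-WT and 3 among those of Smad3-KO. Both sorted samples also held many cells of other kinds: after the filter on quality 3902 and 2433 barcodes remained, of which 1615 and 876 were neutrophils by the rule above.

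Interferon-response cells were sequenced more deeply than the other neutrophils, as a rule with a fixed number of UMIs favours. The median was 866 UMIs in the interferon-response cells and 727 in the other neutrophils of Smad3-WT, and 1165 and 925 in Smad3-KO. In all, the interferon-response cells held 495258 and 739739 UMIs and the other neutrophils 1044995 and 348553. Mitochondrial genes made up 1.21% and 0.810% of the UMIs of interferon-response cells, against 0.901% and 0.735% in the others. Levels below are in CPM, the UMIs of a gene or gene list for each 1000000 UMIs of a cell group, summed over its cells.

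The selecting genes have roles at several steps of antiviral defence. Isg15 (ENSMUSG00000035692) is a small ubiquitin-like protein that is linked to other proteins, Rsad2 (ENSMUSG00000020641) is viperin, an enzyme that makes a nucleotide blocking viral polymerases, and Ifit1 (ENSMUSG00000034459) and Ifit3 (ENSMUSG00000074896) are partner proteins that bind viral RNA. They are shown with their promoters because all 4 held the core of the interferon-stimulated response element, here the letters TTCNNTTTC or, on the other strand, GAAANNGAA, in the window from 250 bases before to 50 after the gene start. Each run below is 49 bases read 5′ to 3′ on the strand of the gene from RefSeq promoters of build GRCm38.p6, with every match in capitals, and lies upstream of the start. The Ifit1 run lies at chr19:34640785-34640833 on the plus strand, the Ifit3 run at chr19:34583407-34583455 on the plus strand, the Isg15 run at chr4:156200856-156200904 on the minus strand and the Rsad2 run at chr12:26456543-26456591 on the minus strand. Cxcl10, a chemokine gene outside the rule, is added for comparison, at chr5:92349074-92349122 on the minus strand.
Ifit1: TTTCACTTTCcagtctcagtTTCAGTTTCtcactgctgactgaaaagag
Ifit3: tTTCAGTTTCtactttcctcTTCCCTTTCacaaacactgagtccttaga
Isg15: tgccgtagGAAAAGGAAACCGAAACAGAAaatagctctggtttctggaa
Rsad2: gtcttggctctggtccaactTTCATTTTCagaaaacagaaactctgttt
Cxcl10: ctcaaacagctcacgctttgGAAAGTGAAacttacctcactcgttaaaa
The upstream match nearest to the start lies in the middle of each run and began 84 bases before the start of Ifit1, 102 before Ifit3, 66 before Isg15, 119 before Rsad2 and 213 before Cxcl10. Ifit1, Ifit3 and Isg15 held 3 upstream matches each, some overlapping or reaching beyond the run, and Rsad2 and Cxcl10 held 1 each. A match is a description of the letters and not evidence of binding.

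Within the interferon-response cells, Isg15 and Rsad2 gave most of the selecting UMIs. Isg15 stood at 4761 CPM in Smad3-WT and 3909 in Smad3-KO, and at 297 and 379 in the other neutrophils. Rsad2 stood at 2867 and 3113, against 121 and 201 in the others. Ifit1 stood at 1022 and 948, against 23 and 40.2, and Ifit3 at 689 and 197, against 5.74 and 2.87. These gaps were set by the selection and are a description. Ifit3 was the member whose level was furthest apart between the libraries, and it made up 7.37% (Smad3-WT) and 2.42% (Smad3-KO) of the selecting UMIs. Isg15 was detected in 95.1% and 94.4% of interferon-response cells, Rsad2 in 73.9% and 86.5%, Ifit1 in 43.3% and 49.5%, and Ifit3 in 34.6% and 16.8%. Most cells were selected on more than 1 gene: all 4 genes were detected in 84 and 62 cells, 3 in 113 and 193, 2 in 146 and 216, and a single gene in 82 and 64. In 72 cells (16.9%) of Smad3-WT and 42 cells (7.85%) of Smad3-KO all selecting UMIs were of Isg15. More cells needed Isg15 to pass. Selecting without it left 14.9% and 41.4% of neutrophils as interferon-response cells, against 26.3% and 61.1% with it.

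**Figure D1:**
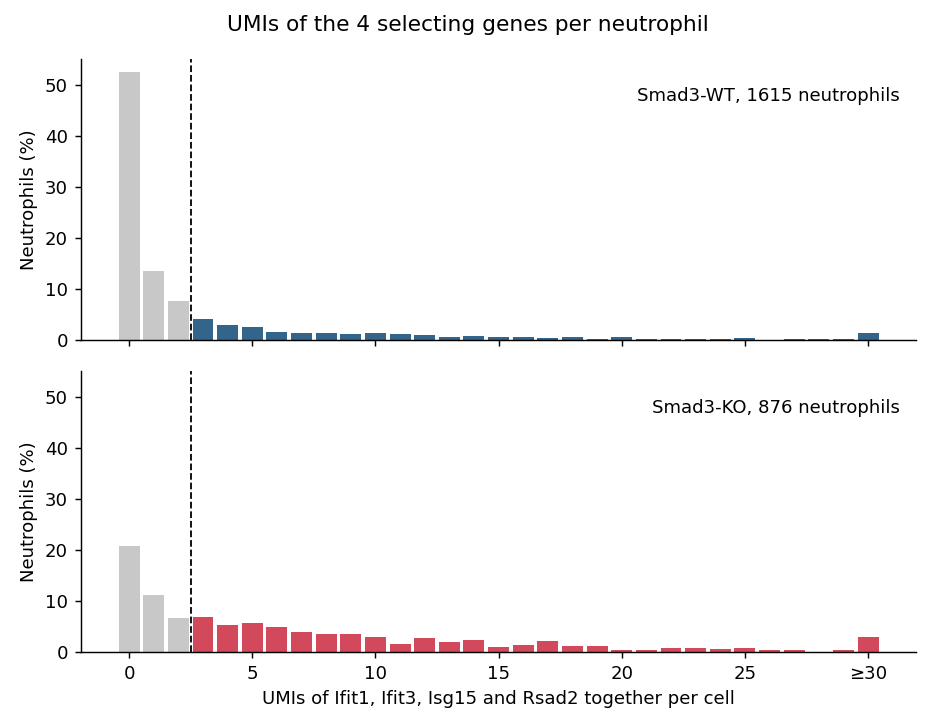
Share of neutrophils (%) by their UMIs of Ifit1, Ifit3, Isg15 and Rsad2 together, for the Smad3-WT and Smad3-KO libraries, with cells of 30 or more in the last bar and the threshold of 3 as a dashed line. The distribution falls off from 0 with no gap at the threshold, and 11.1% of Smad3-WT and 27.1% of Smad3-KO neutrophils held 10 or more.

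Interferon-response cells made up a larger share of the Smad3-KO neutrophils. The share was 26.3% in Smad3-WT (interval 24.2 to 28.5) and 61.1% in Smad3-KO (interval 57.8 to 64.3), a ratio of 2.32. Cells with at least 1 UMI of the selecting genes were 47.5% and 79.1% of neutrophils, and cells with at least 10 were 11.1% and 27.1%, so the order of the libraries was the same at a looser and a tighter threshold. Because Smad3-KO cells were deeper, each cell was also thinned at random to 500 UMIs, which left out no cell. The thinned shares were 18.9% (interval 17.0 to 20.9) and 40.8% (interval 37.5 to 44.1). Among cells of like depth the Smad3-KO share was likewise the larger in each of 5 ranges: 19.6% and 37.6% at more than 500 and up to 750 UMIs, 26.2% and 51.0% up to 1000, 32.8% and 68.4% up to 1500, 50.9% and 77.6% up to 2500, and 48.1% and 88.6% above 2500. Whether the gap exceeds the variation among mice of 1 genotype cannot be read from 1 library each.

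**Figure D2:**
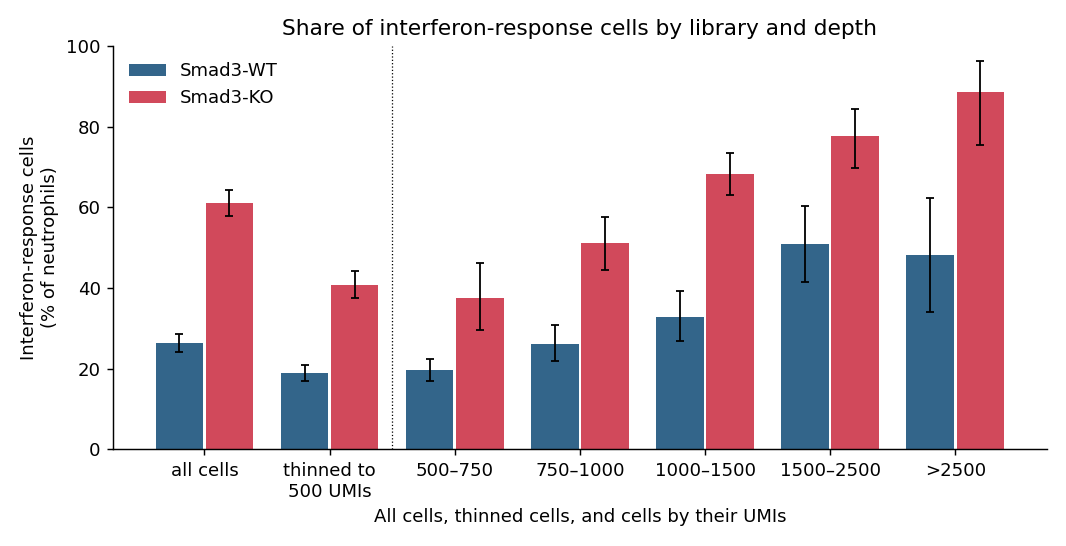
Share of neutrophils that were interferon-response cells (%), by library, for all cells, for cells thinned to 500 UMIs and for cells in 5 ranges of UMIs, with exact 95% intervals as error bars. Smad3-KO lies above Smad3-WT in every pair of bars, at 40.8% against 18.9% after thinning.

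Cells of other kinds in the same libraries served as the background. They passed the quality filter, were not neutrophils by the rule and had S100a8 and S100a9 below 1% of UMIs. Cells that met the marker counts of more than 1 kind, T cells and fibroblasts among the kinds, were left out. After the same thinning, 3 or more selecting UMIs were left in 1 of 434 Smad3-WT cells (0.230%) with at least 3 UMIs of the carcinoma genes Krt8 and Krt18, at a median depth of 23346 UMIs before thinning. In Smad3-KO they were left in 5 of 447 cells (1.12%) with at least 2 UMIs of the B cell genes Cd79a and Cd79b, at a median of 1223 UMIs. Smad3-WT cells with at least 3 UMIs of Ly6c2, Ccr2 and Ms4a6c, genes of monocytes, and no C1q UMI reached 13%, and those with at least 3 UMIs of C1qa, C1qb and C1qc, genes of macrophages, reached 4.16%. Without thinning the 4 shares were 17.3%, 7.83%, 30.3% and 23.6%, the deeper cells having more UMIs to pass with. The thinned neutrophil shares of 18.9% and 40.8% lay above each of the thinned shares, closest to the 13% of cells with monocyte genes. The level of the selecting genes in all neutrophils together was 3305 CPM in Smad3-WT and 5751 in Smad3-KO, against 103 in the Krt8 and Krt18 cells, 447 in the Cd79a and Cd79b cells, 490 in the Smad3-WT C1q cells and 1562 in the Smad3-WT cells with monocyte genes. Those cells with monocyte genes also stood at 16911 CPM summed over 58 interferon-stimulated genes that the selection did not use, beside 15024 in all Smad3-WT neutrophils and 25431 in the interferon-response neutrophils, and at 5556 CPM of Ifitm3, beside 3269 in the interferon-response neutrophils.

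The threshold cut through a continuum. A list of 58 further interferon-stimulated genes (antiviral effectors, ISG15 conjugation, interferon-inducible GTPases and chemokines) holds none of the selecting genes, but its member Ifit3b may share reads with Ifit3. Summed over this list, the level in Smad3-WT was 8578 CPM in cells with 0 selecting UMIs, 11970 with 1, 15890 with 2, 15568 with 3, 19462 with 4 to 5, 22397 with 6 to 9 and 32367 with 10 or more. In Smad3-KO the levels were 10321, 13431, 14181, 15380, 17146, 20271 and 26631. Cells just inside the threshold, 66 in Smad3-WT and 61 in Smad3-KO with 3 selecting UMIs, thus stood close to the 124 and 59 cells just outside it with 2. Without Ifit3b the sums were 8572 and 10315 with 0 selecting UMIs and 30673 and 26302 with 10 or more. Within the list, Ifit2, Cmpk2, Oasl1, Usp18 and Herc6, all closely tied to type I interferon, summed to 55.6 and 33.5 in cells with 0 selecting UMIs, to 310.2 and 316 in cells with 3, and to 2050 and 1397 in cells with 10 or more. With Ifit3b added, these sums were 61.2 and 39.1, 458 and 359, and 3744 and 1726. Il1b, an inflammatory cytokine, had no such order, at 8187 and 9957 with 0 and at 8247 and 10385 with 10 or more.

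**Figure D3:**
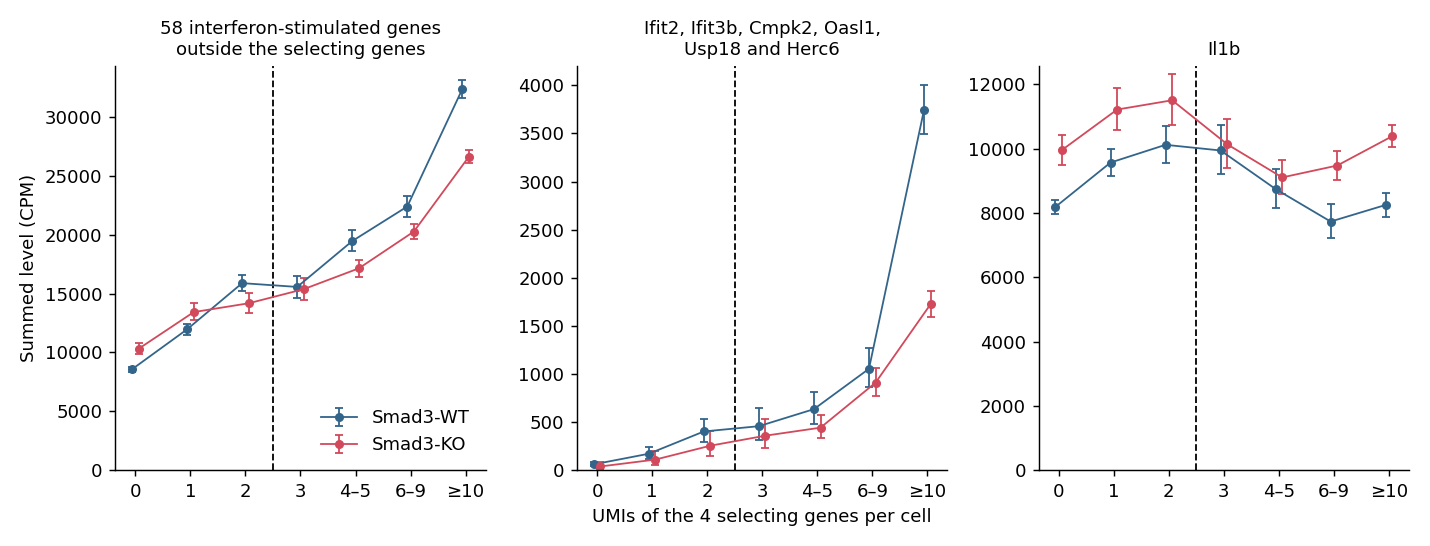
Summed level (CPM, with exact 95% Poisson intervals) of 58 interferon-stimulated genes, of 6 type I genes (Ifit3b among them) and of Il1b in neutrophils binned by their UMIs of the 4 selecting genes, with the threshold as a dashed line. The first panel goes from 8578 to 32367 in Smad3-WT and from 10321 to 26631 in Smad3-KO without a step at the threshold, and Il1b stays between 7731 and 11501 in both libraries.

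Genes were then compared between interferon-response cells and the other neutrophils of the same library. Of 2848 genes with at least 50 UMIs in Smad3-WT neutrophils, 108 (3.79%) were at least 2-fold higher in the interferon-response cells and 40 (1.4%) stood at 0.5 times or less. Of 1941 such genes in Smad3-KO, 97 (5%) were at least 2-fold higher and 35 (1.8%) at 0.5 times or less. The median fold over all these genes was 0.97 and 1.01. Of the 58 interferon-stimulated genes outside the selection, 37 and 42 had 50 UMIs, of which 35 and 32 were at least 2-fold higher and none at 0.5 times or less, with median folds of 3.57 and 2.72. The minimum of 50 UMIs was taken over both cell groups together, so a gene could pass through the group where it was high. Without that minimum, all 58 genes summed to 25431 CPM in the interferon-response cells and 10091 in the other neutrophils of Smad3-WT. In Smad3-KO they summed to 22439 and 11987. The folds of the sums were 2.52 (interval 2.46 to 2.59) and 1.87 (interval 1.81 to 1.94), and 2.43 and 1.86 without Ifit3b. In single cells the median level was 24096 against 8222 in Smad3-WT and 21629 against 10023 in Smad3-KO. The groups overlapped, with lowest interferon-response cells at 1353 and 1669 and highest other neutrophils at 70330 and 48435. Nearly every neutrophil of either group held UMIs of these genes, 36 of 1190 (3.03%) and 4 of 341 (1.17%) of the other neutrophils having none. Matching the other neutrophils to the interferon-response cells on UMIs gave median folds of 3.37 and 2.63. The counts of genes at 0.5 times or less were less stable: the same matching gave 118 in Smad3-KO, and means over cells gave 104 in Smad3-WT and 57 in Smad3-KO.

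Interferon genes themselves were not detected. None of 21 genes for type I, type II and type III interferons, Ifnb1 and Ifng among them, gave a single UMI in any neutrophil of either library. At this depth, 3 UMIs in the interferon-response cells would have been about 6.06 CPM in Smad3-WT and 4.06 in Smad3-KO, which is the level that 0 UMIs allows. The receptor chains were detected in both cell groups. Of 6 receptor genes, 5 had 50 UMIs in each library and none was 2-fold higher, with median folds of 1.03 and 1.29. Ifnar1 stood at 60.6 and 54.5 CPM in the interferon-response and other neutrophils of Smad3-WT and at 155 and 120 in Smad3-KO. Ifnar2 stood at 101 and 123, and at 300.1 and 204.

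Signalling factors were higher in part. Of 16 factors, 13 had 50 UMIs in each library and 7 in Smad3-WT and 6 in Smad3-KO were at least 2-fold higher, with median folds of 2.56 and 1.94. Irf7, the transcription factor that amplifies interferon-alpha production, stood at 695 CPM in the interferon-response cells and 121 in the others of Smad3-WT, and at 293 and 100.4 in Smad3-KO. Its folds were 5.76 (interval 4.68 to 7.12) and 2.92 (interval 2.04 to 4.30). Stat2 stood at 84.8 and 18.2 in Smad3-WT and at 151 and 23 in Smad3-KO, with folds of 4.66 and 6.60, while Irf9, its DNA-binding partner, had folds of 2.88 and 1.75. Other factors were less than 2-fold apart: Jak1 had folds of 1.22 and 1.27, Irf1, which interferon gamma also induces, of 1.27 and 1.57, and Socs3, an inhibitor of cytokine signalling that other cytokines induce, of 0.94 and 0.78.

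Sensors of viral RNA and DNA had a higher summed level in the interferon-response cells. Over all 16 sensor genes in the matrix, led by Ifi204, the folds of the sums were 4.79 (interval 4.21 to 5.46) in Smad3-WT and 2.70 (interval 2.23 to 3.30) in Smad3-KO. Of these 16 genes, 8 and 4 had 50 UMIs, and 7 and 4 of these were at least 2-fold higher, beside 3.79% and 5% of all genes. Genes could reach 50 UMIs through the interferon-response cells, so these counts were set in part by the filter. Ddx58, which encodes the RNA sensor RIG-I, stood at 166 and 37.3 CPM in Smad3-WT and at 220 and 80.3 in Smad3-KO, with folds of 4.44 and 2.74. Zbp1, a sensor of Z-form nucleic acid that can trigger cell death, had folds of 4.59 and 3.87, and Ifih1, the sensor of long double-stranded RNA, of 3.27 and 2.36. Of the Pyhin family of DNA-binding proteins, Ifi204 stood at 547 and 105 in Smad3-WT and at 261 and 97.6 in Smad3-KO, with folds of 5.20 and 2.68. Aim2, a related inflammasome sensor, had a fold of 1.62 (interval 0.90 to 2.88) in Smad3-WT and gave only 17 and 7 UMIs in Smad3-KO.

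Antiviral effectors were the largest list. Of 34 effectors in the matrix, 25 and 26 had 50 UMIs, and 23 and 17 were at least 2-fold higher, with median folds of 3.57 and 2.58. Ifit2, another IFIT protein, stood at 202 and 2.87 CPM in Smad3-WT and at 164 and 8.61 in Smad3-KO. With only 3 UMIs in the other neutrophils of each library, its folds of 70.3 (interval 23.4 to 347) and 19.0 (interval 6.35 to 93.4) were loosely bounded. Cmpk2, a mitochondrial nucleotide kinase whose gene neighbours Rsad2, stood at 279 and 17.2 and at 232 and 20.1, with folds of 16.2 (interval 9.86 to 28.1) and 11.6 (interval 5.50 to 29.2). Oasl1, a regulator of Irf7 translation, stood at 390 and 47.9 and at 253 and 14.4, with folds of 8.14 and 17.6.

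Other effectors showed smaller folds. Ifitm3, a membrane protein that blocks the entry of viruses, stood at 3269 and 1117 CPM in Smad3-WT and at 2520 and 1173 in Smad3-KO, with folds of 2.93 (interval 2.71 to 3.16) and 2.15 (interval 1.93 to 2.40). Slfn4, a Schlafen gene of myeloid cells, stood at 4668 and 1307 and at 4506 and 2318, with folds of 3.57 and 1.94. Isg20, an exonuclease of single-stranded RNA, had folds of 3.95 and 3.71, Bst2, which tethers budding virus to the cell, of 3.66 and 3.61, and Rtp4 of 3.57 and 2.30. Oas2 and Oas3, enzymes that make the oligoadenylates which activate RNase L, had folds of 2.99 and 2.48 and of 3.19 and 1.80. In Smad3-WT, Ifitm1 and Slfn1 were the only effectors with 50 UMIs that were not 2-fold higher, and in Smad3-KO they were among 9, of which the other 7 had folds between 1.47 (Ifi27l2a) and 1.94 (Slfn4). Ifitm1 was at 2189 and 2365 in Smad3-WT and at 2659 and 3305 in Smad3-KO, and Slfn1 at 1686 and 1730 and at 660 and 462. Their folds were 0.93 and 0.80 for Ifitm1 and 0.97 and 1.43 for Slfn1.

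The enzymes that attach and remove Isg15 had a higher summed level in the interferon-response cells. Their 4 genes together gave 240 and 71 UMIs in Smad3-WT and 380 and 37 in Smad3-KO. The folds of the sums were 7.13 (interval 5.45 to 9.43) and 4.84 (interval 3.45 to 6.98). All 4 had 50 UMIs and were at least 2-fold higher in both libraries, with median folds of 7.23 and 6.93. In Smad3-KO they reached 50 UMIs mainly through the interferon-response cells, so that count was set in part by the filter. Usp18, which removes Isg15 from proteins and dampens the interferon receptor, stood at 212 and 19.1 CPM in Smad3-WT and at 161 and 14.3 in Smad3-KO, with folds of 11.1 (interval 6.82 to 18.9) and 11.2 (interval 4.67 to 35.2). Herc6, the mouse ligase for Isg15, stood at 113 and 13.4 and at 168 and 11.5, with folds of 8.44 and 14.6. Uba7, the activating enzyme, had folds of 3.58 and 2.01 (interval in Smad3-KO 1.13 to 3.80), the latter 1.98 without the barcodes present in both libraries, which leaves 3 of 4 genes past 2-fold there, and Ube2l6, the conjugating enzyme, of 6.03 and 2.65.

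Guanylate-binding proteins and immunity-related GTPases, which attack membranes around intracellular microbes, were higher where they had 50 UMIs. Of 16 genes, 6 and 9 had 50 UMIs and each of these was at least 2-fold higher, with median folds of 2.73 and 3.25. In Smad3-KO, Gbp3 gave 60 and 2 UMIs in the interferon-response and other neutrophils, Gbp9 69 and 8, Irgm2 60 and 11 and Gbp7 59 and 12. Such genes reached 50 UMIs mainly through the interferon-response cells, so these counts were set in part by the filter. Gbp2 stood at 434 and 168 CPM in Smad3-WT and at 931 and 287 in Smad3-KO, Ifi47 at 341 and 46.9 and at 403 and 83.2, and Irgm1 at 250.4 and 58.4 and at 335 and 103. Their folds were 2.58 and 3.25, 7.28 and 4.84, and 4.29 and 3.25.

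Of the interferon-inducible chemokines, Cxcl10 differed most between the cell groups. Cxcl10, a ligand of Cxcr3 on T and NK cells, stood at 826 and 55.5 CPM in Smad3-WT and at 662 and 48.8 in Smad3-KO. Its folds were 14.9 (interval 11.3 to 19.9) and 13.6 (interval 8.39 to 23.5). Of the 4 chemokines in the matrix 2 and 3 had 50 UMIs, and at least 2-fold higher were Cxcl10 and Ccl5 in Smad3-WT and Cxcl10 and Cxcl9 in Smad3-KO. Ccl5 stood at 271 and 110 in Smad3-WT, a fold of 2.46 (interval 1.90 to 3.18), and at 450 and 617 in Smad3-KO, a fold of 0.73 (interval 0.61 to 0.87), a difference between the libraries that was not tested. Cxcl9 had a fold of 2.71 (interval 1.27 to 6.65) in Smad3-KO. Ccl5 rested on few cells, since 64 of its 134 UMIs in the Smad3-WT interferon-response cells and 201 of 333 in those of Smad3-KO lay in 1 cell each, as did 93 of 115 and 169 of 215 in the other neutrophils. Likewise, 36 of 46 Cxcl9 UMIs in the Smad3-KO interferon-response cells lay in 1 cell.

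Antigen presentation genes were modestly higher. Of 18 genes of MHC class I and antigen processing, 13 and 15 had 50 UMIs, and 6 were at least 2-fold higher in each library, with median folds of 1.97 and 1.90. B2m, the light chain of class I molecules, stood at 1946 and 1098 CPM in Smad3-WT and at 3085 and 1862 in Smad3-KO, with folds of 1.77 and 1.66. H2-K1, a classical heavy chain, had folds of 1.74 and 1.85, H2-D1 of 1.19 and 1.26, and Tap1, the peptide transporter, of 2.86 and 1.86. The immunoproteasome subunits Psmb8 and Psmb9 had folds of 2.83 and 1.90 and of 3.13 and 2.31. Cd274, which encodes the checkpoint ligand PD-L1, stood at 626 and 385 in Smad3-WT and at 2412 and 1532 in Smad3-KO, with folds of 1.63 (interval 1.40 to 1.89) and 1.57 (interval 1.43 to 1.74). Of the 5 and 6 checkpoint and death ligands with 50 UMIs, 1 and 0 were at least 2-fold higher, the exception being Lgals9 with a fold of 2.67 in Smad3-WT and 1.70 in Smad3-KO.

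**Figure D4:**
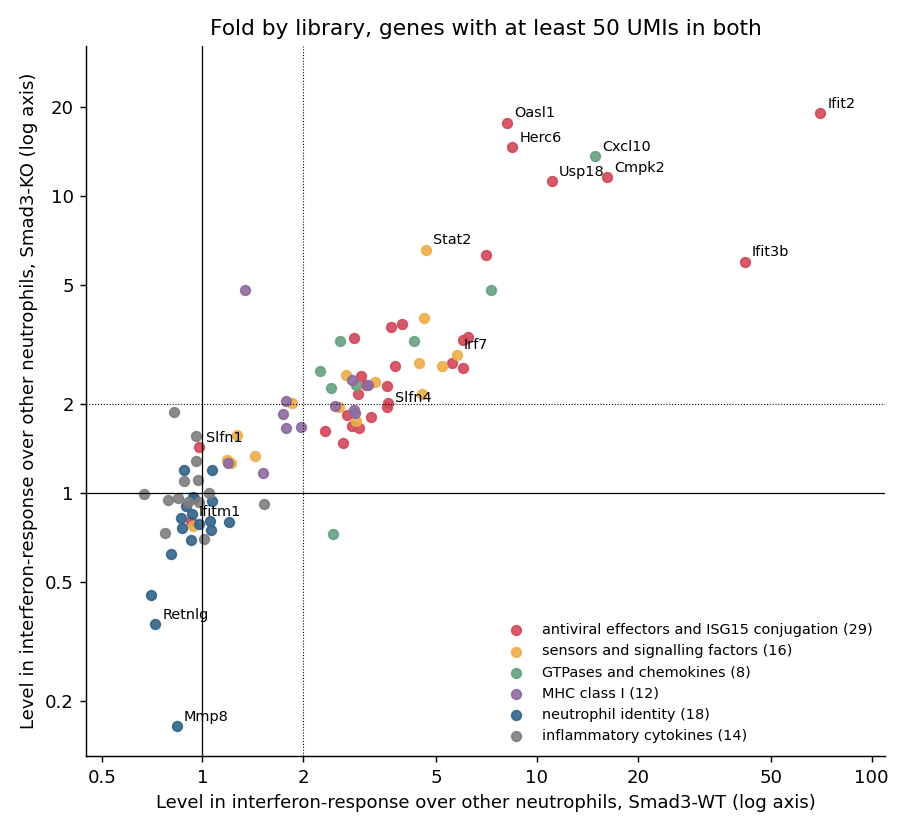
Level in interferon-response cells over that in other neutrophils for genes with at least 50 UMIs in both libraries, Smad3-WT on the x axis and Smad3-KO on the y axis (log axes), colored by gene list, with dotted lines at 2-fold. Most interferon-stimulated genes lie past 2-fold on both axes, with Ifit2 at 70.3 and 19.0 and Cxcl10 at 14.9 and 13.6, while every gene of the neutrophil identity and inflammatory cytokine lists lies below 2 on both axes, the latter list reaching 1.53 in Smad3-WT (Il1a) and 1.88 in Smad3-KO (Csf1).

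Transcripts that define neutrophils were present in both cell groups. Of 20 neutrophil identity genes, 19 had 50 UMIs and none was 2-fold higher in either library, with median folds of 0.93 and 0.80. In Smad3-WT none stood at 0.5 times or less, and in Smad3-KO 3 did. Csf3r, the receptor for granulocyte colony-stimulating factor, stood at 1163 and 1233 CPM in Smad3-WT and at 925 and 964 in Smad3-KO, and Il1r2, the interleukin-1 decoy receptor, at 2215 and 2069 and at 906 and 757. Ly6g, whose product was used for the sort, gave only 19 and 49 UMIs in the interferon-response cells. Retnlg, a secreted resistin-like protein of mature neutrophils, stood at 1359 and 1878 in Smad3-WT and at 1440 and 3974 in Smad3-KO, with folds of 0.72 (interval 0.66 to 0.79) and 0.36 (interval 0.33 to 0.39). Mmp9, a gelatinase, stood at 826 and 1179 and at 204 and 450.4, with folds of 0.70 and 0.45, and Mmp8, a collagenase, at 105 and 125 and at 31.1 and 189, with folds of 0.84 and 0.16. S100a8 and S100a9, which were used to call neutrophils, made up 6.71% of the UMIs of interferon-response cells and 7.76% of those of the others in Smad3-WT, and 5.99% and 9.05% in Smad3-KO.

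The list of inflammatory cytokines, which also holds other inflammatory genes such as Nfkbia and Ptgs2 but not the chemokines Ccl2, Cxcl10 and Ccl5, had no gene with 50 UMIs that differed by 2-fold between the cell groups. Of 19 genes, 14 and 16 had 50 UMIs and none was 2-fold higher or at 0.5 times or less in either library, with median folds of 0.93 and 0.98. Cxcl2, a chemokine that attracts neutrophils, had folds of 0.91 and 0.93, Il1b of 0.97 and 0.93, and Ccl3 of 0.79 and 0.95. Il1rn, the interleukin-1 receptor antagonist, stood at 4172 and 4367 CPM in Smad3-WT and at 6951 and 4456 in Smad3-KO, with folds of 0.96 (interval 0.91 to 1.01) and 1.56 (interval 1.47 to 1.65). The N1 markers of the study (Tnf, Icam1 and Fas), linked to tumor-killing neutrophils, summed to 448 and 514 in Smad3-WT and to 1590 and 1317 in Smad3-KO, and the 3 N2 markers, linked to tumor-promoting neutrophils, to 331 and 175 and to 14.9 and 57.4. The N2 marker Ccl2, a chemokine that attracts monocytes, stood at 246 and 101 CPM in Smad3-WT, a fold of 2.43 (interval 1.86 to 3.18), with 30 of its 122 UMIs in the interferon-response cells lying in 1 cell, and gave 1 and 3 UMIs in Smad3-KO.

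Outside the lists, the 15 genes with the highest folds in both libraries together were Ddx60, Ifit1bl2, Gm13822, Ogfr, Plac8, Znfx1, Trafd1, Daxx, Ifi35, Epsti1, Helz2, Gm21188, Pnp, Gm36161 and Adar. Ddx60, a helicase that assists RIG-I, stood at 117 and 14.4 CPM in Smad3-WT and at 222 and 48.8 in Smad3-KO, with folds of 8.16 and 4.55. Plac8 had folds of 3.74 and 3.02, Trafd1, a negative regulator of innate signalling, of 3.63 and 2.51, Daxx of 2.68 and 3.36, and Adar, which edits adenosine in double-stranded RNA, of 2.88 and 1.92. Lowest outside the lists were Pi16, with folds of 0.74 and 0.11, and Pygl, the liver-type glycogen phosphorylase that neutrophils also use, with folds of 0.63 and 0.33. Pglyrp1, a granule protein that binds peptidoglycan, stood at 281 and 384 in Smad3-WT and at 154 and 393 in Smad3-KO. Among the 1831 genes with 50 UMIs in both libraries, 90 in Smad3-WT and 81 in Smad3-KO were at least 2-fold higher and 58 were so in both, which is 64.4% and 71.6% of each. Of these 58, 4 were the selecting genes and 27 were among the 58 interferon-stimulated genes outside the selection. At 0.5 times or less were 8 and 31 genes, and 3 were so in both, the fibroblast collagens Col1a1 and Col3a1 and 9830107B12Rik. The collagen values rested on few cells. In the other neutrophils, 33 of 87 Col3a1 UMIs in Smad3-WT and 56 of 73 in Smad3-KO lay in 1 cell each, as did 19 of 43 and 30 of 43 of Col1a1. Without that cell the folds were 0.31 and 0.72 for Col3a1 and 0.61 and 0.54 for Col1a1. Without the other neutrophil with most 9830107B12Rik UMIs, which held 2 and 3, they were 0.478 and 0.503 for that gene. Cells were left out only among the other neutrophils, which could only raise these folds. In the interferon-response cells of Smad3-KO, 15 of 26 Col3a1 UMIs and 6 of 15 Col1a1 UMIs also lay in 1 cell each, and these were kept.

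Markers of other cells differed between the cell groups in some cases, and their part in the results was not tested. Some of these markers were limited by the rule for neutrophils, namely C1qa, C1qb, C1qc, Ccr2, Ms4a6c, Cd79a, Cd3e and Krt8. The granule genes Camp, Ngp and Ltf were limited too. Their low or 0 counts were thus set in part by the selection, and they enter the sums below. Monocyte markers, 8 genes led by Ly6c2, summed to 624 CPM in the interferon-response cells and 224 in the others of Smad3-WT, and to 193 and 296 in Smad3-KO, Ly6c2 itself standing at 418 and 100.5 and at 143 and 141. Macrophage markers, 12 genes led by Cd68, summed to 549 and 585 and to 484 and 646, with C1qc at 0 in Smad3-KO. Dendritic cell markers, 9 genes led by Cd74, summed to 1163 and 644 and to 2279 and 1790, with Flt3 and Siglech at 0 in Smad3-WT, and 145 of 353 and 328 of 857 Cd74 UMIs in interferon-response cells lay in 1 cell each. Fibroblast markers, 5 genes led by Col3a1, summed to 34.3 and 169 and to 67.6 and 534, but 72 of their 177 UMIs in the other neutrophils of Smad3-WT and 135 of 186 in those of Smad3-KO lay in 1 cell each, without which the others stood at 101 and 147. Markers of T and NK cells, 8 genes led by Cd3d, summed to 28.3 and 13.4 and to 46.0 and 60.2, with Cd3e, Nkg7, Gzma and Ncr1 at 0 in Smad3-WT and Gzma and Ncr1 at 0 in Smad3-KO. B cell markers, 6 genes led by Ighm, summed to 86.8 and 52.6 and to 204 and 175, with Cd79a, Cd79b, Ms4a1 and Igkc at 0 in Smad3-WT. Carcinoma markers, 6 genes led by Cav1, summed to 58.6 and 32.5 and to 14.9 and 2.87, with Krt8, Krt18, Wfdc2 and Rhox5 at 0 in Smad3-KO. Primary and secondary granule genes, 11 genes led by Lyz2 in Smad3-WT and by Lcn2 in Smad3-KO, summed to 1460 and 2120 and to 8216 and 7210, with Mpo, Elane and Ctsg at 0 in every neutrophil of both libraries. Requiring 0 UMIs of the 8 excluded genes gave median folds of 3.56 and 2.69 for the interferon-stimulated genes. Stress genes, 9 genes led by Junb, summed to 12575 and 13494 in Smad3-WT and to 7538 and 7629 in Smad3-KO, a list in which 1 and 2 genes were at least 2-fold higher. The heat shock gene Hspa1a had folds of 1.13 and 7.32 (interval in Smad3-KO 4.35 to 13.3), with 36 of its 233 UMIs in the Smad3-KO interferon-response cells lying in 1 cell. Its neighbour Hspa1b had folds of 2.25 and 3.39, with 34 of 180 UMIs in 1 cell.

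The response element seen in the selecting genes was frequent in the promoters of the other interferon-stimulated genes. TTCNNTTTC on either strand was found in 9.76% of the promoters of 27025 genes and in 11.9% of those of 1460 genes with 50 UMIs in both libraries. It was found in 26 of the 43 interferon-stimulated genes outside the selection that matched the promoter table (60.5%), and by list in 15 of 27 antiviral effectors, 9 of 10 GTPases, 2 of 3 chemokines and 0 of 3 genes of ISG15 conjugation. It was also found in 5 of 10 sensors, 5 of 16 class I genes, 3 of 18 neutrophil identity genes (16.7%) and 2 of 13 inflammatory cytokines. Of the genes at least 2-fold higher in both libraries, the selecting genes left out, 23 of 47 that matched held it (48.9%). The 250 bases before the starts of Ifit2, Cmpk2, Oasl1 and Irf7, whose folds ran from 2.92 to 70.3, did not hold these letters. A second motif, TTCNNNGAA, the core of the gamma-activated sequence through which interferon gamma acts, was found in 9.55% of all promoters, in none of the 4 selecting genes, in 27.9% of the interferon-stimulated genes and in 6 of 10 GTPases. A promoter may hold both motifs, overlapping in part, and was then counted for each.

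Interferon-response cells of the libraries were then compared with each other. Of 2270 genes with at least 50 UMIs in them together, 237 (10.4%) were at least 2-fold higher in Smad3-KO and 358 (15.8%) stood at 0.5 times or less, and the median ratio was 0.84. The summed level of the 58 interferon-stimulated genes was 22439 CPM in Smad3-KO and 25431 in Smad3-WT, a ratio of 0.88 (interval 0.86 to 0.90). Of the 43 with 50 UMIs, 6 were at least 2-fold higher and 4 at 0.5 times or less, with a median ratio of 0.95. In the other neutrophils the sum was 11987 against 10091, a ratio of 1.19 (interval 1.15 to 1.23). Each of these comparisons is between cells chosen by a fixed number of selecting UMIs, which deeper cells reach at a lower CPM, and the Smad3-KO cells were the deeper. Over all neutrophils, with no selection, the sum was 19091 CPM in Smad3-KO and 15024 in Smad3-WT, a ratio of 1.27 (interval 1.25 to 1.29).

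Single interferon-stimulated genes had ratios on both sides of 1 between the interferon-response cells of the libraries. Of all 2270 genes, 10.4% were at least 2-fold higher in Smad3-KO and 15.8% stood at 0.5 times or less. Such differences were thus not particular to interferon-stimulated genes. Ifit3b, a near-identical copy of Ifit3 that may share reads with it, stood at 207 CPM in Smad3-KO and 919 in Smad3-WT, a ratio of 0.23 (interval 0.19 to 0.27), and Ifit3 at 197 and 689, a ratio of 0.29 (interval 0.23 to 0.35), so the split between the copies is uncertain while both were lower. The other selecting genes had ratios of 0.82 (Isg15, interval 0.78 to 0.87), 0.93 (Ifit1, interval 0.83 to 1.04) and 1.09 (Rsad2, interval 1.02 to 1.16), a description of cells chosen by the UMIs of these genes. Over all neutrophils, with no selection, the 4 selecting genes together stood at 5751 CPM in Smad3-KO and 3305 in Smad3-WT, a ratio of 1.74 (interval 1.68 to 1.81). There Isg15 had a ratio of 1.60, Ifit1 of 1.91 and Rsad2 of 2.17, while Ifit3 had 0.60 (interval 0.49 to 0.73) and Ifit3b 0.49 (interval 0.41 to 0.58). Ifit3 took 2.42% of the selecting UMIs in interferon-response neutrophils of Smad3-KO and 0.46% (1 of 217 UMIs) in the other neutrophils. In cells of other kinds of Smad3-KO its part was 14.6% in cells with Cd79a and Cd79b and 10.4% in cells with Cd3d, Cd3e and Cd3g. It was 8.06% in cells with at least 10 UMIs of the fibroblast genes Col1a1, Col1a2 and Dcn. In the 29 C1q cells it was 7.89% and in the 44 cells with monocyte genes 4.90%, from only 76 and 143 selecting UMIs. In Smad3-WT Ifit3 took 7.37% in interferon-response neutrophils and 1.29% (6 of 466 UMIs) in the other neutrophils. Beside these stood 9.48% in the C1q cells, 9.22% in the cells with monocyte genes and 5.93% in the Krt8 and Krt18 cells. It took 3.23% in the 21 cells with Cd3 genes and 1.96% in the 24 cells with fibroblast genes, from 31 and 51 selecting UMIs.

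Other genes lower in Smad3-KO were Irf7, at 293 and 695 with a ratio of 0.42, Ifi27l2a at 744 and 1852 with 0.40, Ly6e at 362 and 1084 with 0.33, Ifi204 at 261 and 547 with 0.48, and the nonclassical class I genes H2-T22, at 31.1 and 198 with a ratio of 0.16 (interval 0.10 to 0.25), and H2-T23, at 101 and 359 with 0.28. Higher in Smad3-KO were Gbp2, at 931 and 434 with a ratio of 2.15, Gbp5, at 201 and 56.5 with 3.56, Samd9l, at 507 and 228 with 2.22, Parp14, at 399 and 188 with 2.12, Nlrc5, the transactivator of class I genes, at 134 and 52.5 with 2.55, and H2-K1, at 2535 and 1040 with 2.44. Several of these differences were also present in the other neutrophils, where the ratio was 0.30 for H2-T22, 0.36 for H2-T23, 0.49 for Ly6e, 0.72 for Ifi27l2a, 2.29 for H2-K1, 1.70 for Gbp2, 6.00 for Gbp5, 3.96 for Samd9l, 2.998 for Parp14 and 2.09 for Nlrc5. Those of H2-T22, Gbp5 and Nlrc5 rested on 5, 16 and 16 UMIs in the other neutrophils of Smad3-KO. Their intervals were 0.09 to 0.75, 2.42 to 16.2 and 1.03 to 4.12. For Irf7 and Ifi204 the ratio in the other neutrophils was 0.83 (interval 0.56 to 1.22) and 0.93 (interval 0.61 to 1.37). Whether the cell groups differ in any of these ratios was not tested. The GTPase list as a whole had a ratio of 1.61 (interval 1.47 to 1.75), the class I list of 1.49 (interval 1.44 to 1.55) and the sensor list of 0.61 (interval 0.55 to 0.68), beside 1.61, 1.504 and 1.09 in the other neutrophils.

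**Figure D5:**
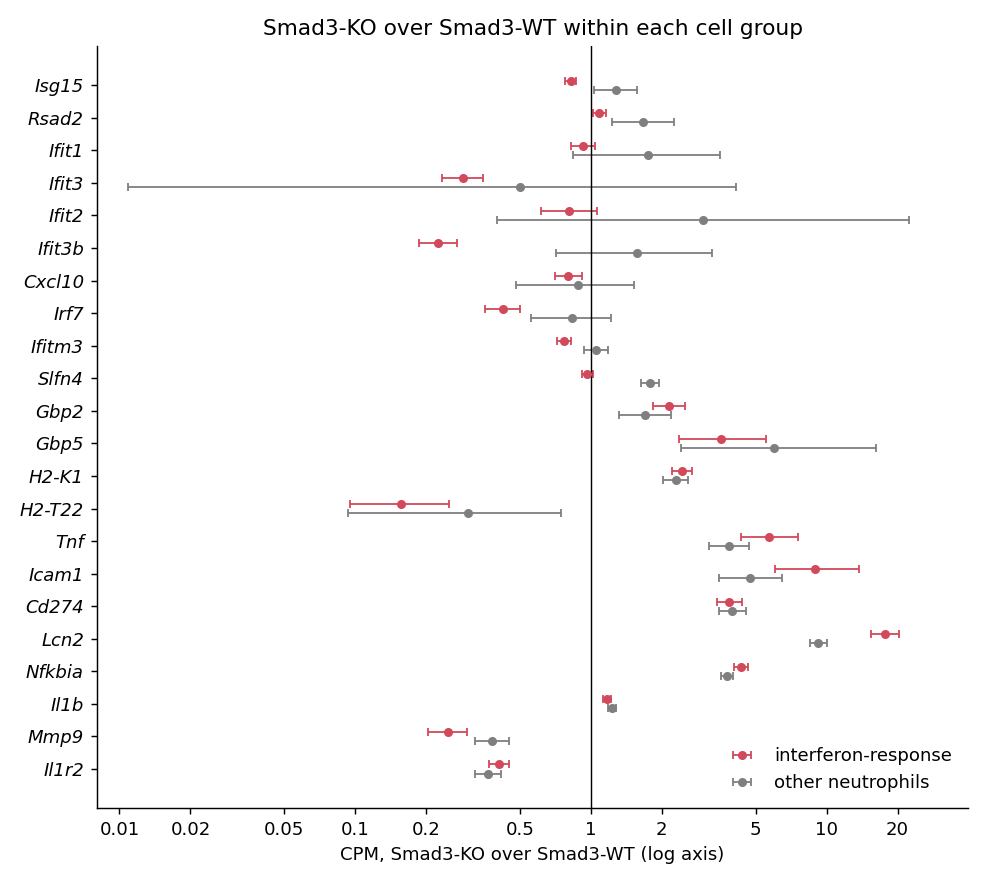
Ratio of CPM in Smad3-KO over Smad3-WT (log axis) for 22 named genes, in interferon-response cells and in the other neutrophils, with exact 95% intervals. The selecting genes Isg15, Rsad2, Ifit1 and Ifit3 lie at 0.82, 1.09, 0.93 and 0.29 in interferon-response cells, which were chosen by their UMIs, Ifit3b and H2-T22 lie at 0.23 and 0.16, and Tnf, Icam1, Cd274, Lcn2 and Nfkbia lie above 3 in both cell groups.

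Genes outside the interferon lists also had different levels in the libraries, and whether the ratios differ between interferon-response cells and the other neutrophils was not tested. Tnf stood at 679 CPM in the interferon-response cells of Smad3-KO and 119 in those of Smad3-WT, a ratio of 5.70 (interval 4.34 to 7.59), beside 3.85 in the other neutrophils. Icam1, an adhesion molecule, stood at 487 and 54.5, a ratio of 8.93 (interval 6.03 to 13.7), beside 4.75. Fas, a death receptor, stood at 424 and 275, a ratio of 1.55 (interval 1.26 to 1.90), beside 1.14 (interval 0.90 to 1.43), which spans 1. Cd274 had ratios of 3.85 and 3.98 and Nfkbia, an inhibitor and target of NF-kappa B, of 4.33 and 3.77. Lcn2, an iron-sequestering granule protein, stood at 7661 and 434, a ratio of 17.6 (interval 15.4 to 20.3), beside 9.21 (interval 8.46 to 10.03). Lower in Smad3-KO were Mmp9, with ratios of 0.25 and 0.38, Il1r2, with 0.41 and 0.37, and Osm, a cytokine of the interleukin-6 family, with 0.29 and 0.42. The N2 markers gave 11 UMIs in the interferon-response cells of Smad3-KO and 164 in those of Smad3-WT, led by Ccl2 with 1 and 122, of which 30 lay in 1 cell.

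The highest ratios between the libraries were those of the globins Hbb-bs (554) and Hba-a1 (244), whose 828 and 728 UMIs in Smad3-KO lay in 1 cell. Several other genes with ratios furthest from 1 gave 5 UMIs or fewer in 1 of the libraries. Gm3839 gave 1411 UMIs in the interferon-response cells of Smad3-KO and 5 in those of Smad3-WT, BC117090 180 and 1, Nos2, the inducible nitric oxide synthase, 102 and 1, Saa3, an acute-phase protein, 233 and 4, and Csf3, a growth factor of granulocytes, 190 and 4. Of those lower in Smad3-KO, Gm34084 gave 0 and 85 UMIs, Clec4n, the fungal receptor Dectin-2, 40 and 585, H2-Q10 25 and 181, and Lgals1 18 and 213, of which 109 lay in 1 Smad3-WT cell. H2-Q10 belongs to a family of closely related class I genes, so that reads may have been split between copies.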

How the data were processed

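A library of each genotype was analysed from the deposited matrix of raw UMI counts, which the authors made with Cell Ranger 3.0.2 and, per the labels, build mm10. The deposited averages of the 2 genotypes are a signal per gene (library CPM scaled to the median of 1311 UMIs per barcode), and they were used only to assign barcodes to libraries. Averages recomputed from suffix 1 and suffix 2 matched those of Smad3-KO and Smad3-WT within 4.91e-09 and 3.58e-08. The authors' fold changes and p-values in the same table were not used.

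The study's filter, which also required fewer than 20000 UMIs, left 3520 of 4116 Smad3-WT and 2433 of 2514 Smad3-KO barcodes. Here that upper limit served as an alternative. Doublets were not called or removed. UMIs were summed per library and cell group, and levels were divided by the group's total. Intervals were exact Poisson for levels, Clopper-Pearson for shares and conditional binomial for ratios. A fold against 0 UMIs used a floor of 3 UMIs over the group. Genes with at least 50 UMIs in the groups compared together were counted, so a gene could pass through the group where it was high. With 1 library per genotype no test was run. Thinning drew 500 UMIs per cell with seed 1. Members and gene lists were chosen with earlier results of these data known. Named genes were those of the lists (283 genes, 278 in the matrix of 31053), the 15 highest and 10 lowest outside them in both libraries, and the 10 highest and 10 lowest ratios between libraries. Xist and Ddx3y fall outside this rule and were chosen after related values were seen. Promoters came from RefSeq (GRCm38.p6).

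Computations used scipy 1.17.1 and numpy 2.4.6 under Python 3.11.15, with tables in pandas 2.3.3 and plots in matplotlib 3.10.9. On simulated data with 200 genes changed 4-fold, 95.3% (Smad3-WT, 2848 genes) and 96.5% (Smad3-KO, 1941 genes) of intervals held the true fold. Alternatives were other thresholds, depth matching, thinning, other UMI minimums, and 4 added after seeing the data, leaving out shared barcodes, selecting without Isg15, leaving Ifit3b out of the list and leaving out the 1 other neutrophil with the most UMIs of a gene. Some genes of the lists are not reported here.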

Additional observations from a re-analysis of the deposited data

Results flagged for a closer look

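Genes that lay past 2-fold in opposite directions in the libraries were looked at again, and none of these differences was tested. Hbb-bs, a beta globin of red cells, gave 1 UMI in the interferon-response cells and 285 in the other neutrophils of Smad3-WT, a fold of 0.0074, and 828 UMIs against 0 in Smad3-KO, at least 130-fold higher when the 0 is set to a floor of 3 UMIs over the group, with a lower limit of 105.5 by the exact interval. All 828 UMIs lay in 1 cell, and 229 of the 285 lay in 1 other Smad3-WT cell. Hba-a1, an alpha globin, had folds of 0.062 and 343, and its 728 UMIs in Smad3-KO lay in 1 cell.

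Tmem123 gave 62 UMIs in the interferon-response cells and 52 in the other neutrophils of Smad3-WT, a fold of 2.52, and 35 and 45 in Smad3-KO, a fold of 0.37. Of the 62 UMIs, 23 lay in 1 cell, and of the 45, 25 lay in 1 cell.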

How the results depend on the processing

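The share of interferon-response cells followed the selection. In Smad3-WT it was 34.0% with at least 2 selecting UMIs, 19.3% with at least 5, 24.1% with S100a8 and S100a9 at 5% of UMIs or more, 18.9% after thinning and 14.9% when selecting without Isg15. In Smad3-KO the same choices gave 67.8%, 48.7%, 52.8%, 40.8% and 41.4%, and requiring the selecting genes to be 0.3% of UMIs gave 54.0%. The ratio of the shares was 1.99 with at least 2 selecting UMIs and 2.78 without Isg15, and stayed above 1 under each alternative run. Genes at least 2-fold higher numbered 224 (Smad3-WT) and 247 (Smad3-KO) with a minimum of 20 UMIs, 62 (Smad3-KO) with 100, and 211 and 255 past 1.5-fold. Genes at 0.5 times or less numbered 225 and 149 with 20 UMIs, 6 and 11 with 100, 104 and 57 with means over cells, and 118 (Smad3-KO) with matched depth, and 205 and 154 stood at or below the reciprocal of 1.5. A lower minimum admits more genes by construction. For the other choices the cause was not tested. The median folds of the 58 interferon-stimulated genes moved by less than 1.5 times under every alternative run. No paired analysis was possible because each genotype had 1 library.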
